A study of Mus musculus with 75 samples.

Results

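The genes followed here through 75 RNA libraries of sorted mouse blood cells are Rgs7bp, Phldb2, Fam198b, Cldn10, Adgre4 and Gprin3, 6 of the 41388 genes in both count tables. Rgs7bp, Phldb2, Fam198b, Cldn10 and Adgre4 were picked because few of their reads were left in untreated haematopoietic stem cells (HSC) without Kmt2c, where they rank 11th, 1st, 2nd, 12th and 14th from the lowest log2 change of 13806 genes tested. Gprin3 has the lowest change of 16538 genes in HSC of mice given PBS, and no read in any knockout HSC library outside the IL-1 group. The values that made this choice are given as a description, without a test. The libraries fall into 2 experiments. In the first, untreated mice of 3 genotypes each gave the 4 populations HSC, HPC, GMP and pGM, the last being pre-granulocyte-monocyte cells, with 4 libraries in each of the 12 groups. Mice were wild type (wt), Kmt2c f/+; Vav-Cre (het) or Kmt2c f/f; Vav-Cre (ko). In the second, wt and ko animals received either IL-1 (interleukin 1, at 0.5 µg per mouse for 3 days) or PBS before HSC and HPC were sorted, with 4 libraries in each HSC group except 3 in HSC wt IL1, and 3 in each HPC group. All mice were 8 weeks old. Vav-Cre is a transgene whose Vav promoter drives Cre recombinase in blood-forming cells, so that the floxed Kmt2c allele is deleted there. Het and ko both carry it and the wt label does not name it, so Cre and the loss of Kmt2c cannot be told apart in a comparison with wt. The series title asks how Kmt2c mutation bears on activated and quiescent HSC.

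Kmt2c (also called MLL3) encodes a methyltransferase that adds monomethyl marks to lysine 4 of histone H3, mainly at enhancers. Rgs7bp anchors RGS7-family proteins and their partner Gβ5 at the membrane, where these complexes speed up the shut-off of heterotrimeric G proteins. Gprin3 belongs to a family that binds activated G protein α subunits and is best known from neurons. Phldb2 (LL5β) binds phosphoinositides and, with CLASP proteins, holds microtubule ends at the cell cortex. Cldn10 is a claudin that forms ion channels in the tight junctions of epithelia. Adgre4 is an adhesion G protein-coupled receptor related to F4/80 and known from macrophages. Fam198b (Gask1b) is a glycoprotein of the Golgi.

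The 6 genes lie on 6 chromosomes and share no locus. On the mouse build GRCm38 with GENCODE M21, Rgs7bp (ENSMUSG00000021719) spans chr13:104945904-105054930 on the minus strand and Phldb2 (ENSMUSG00000033149) chr16:45746243-45953598 on the minus strand. Fam198b (ENSMUSG00000027955) spans chr3:79884533-79946280 on the plus strand and Cldn10 (ENSMUSG00000022132) chr14:118787908-118875489 on the plus strand. Adgre4 (ENSMUSG00000032915) spans chr17:55749984-55853662 on the plus strand and Gprin3 (ENSMUSG00000045441) chr6:59347226-59426294 on the minus strand. The sequence before the RefSeq start of transcription also differs between them. RefSeq (GRCm38.p6) gave 7 starts for the 6 genes, with Fam198b listed as Gask1b and Cldn10 with 2 starts. The 250 bases before each start are shown for 3 genes, 1 rich in G+C (Phldb2) and 2 poorer in it (Rgs7bp and Adgre4), with every CpG in capitals.
Rgs7bp: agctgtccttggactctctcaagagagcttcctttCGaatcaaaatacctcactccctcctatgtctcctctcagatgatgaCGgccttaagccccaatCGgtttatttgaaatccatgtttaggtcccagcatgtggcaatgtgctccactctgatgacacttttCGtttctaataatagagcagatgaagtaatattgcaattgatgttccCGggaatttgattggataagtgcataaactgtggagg
Phldb2: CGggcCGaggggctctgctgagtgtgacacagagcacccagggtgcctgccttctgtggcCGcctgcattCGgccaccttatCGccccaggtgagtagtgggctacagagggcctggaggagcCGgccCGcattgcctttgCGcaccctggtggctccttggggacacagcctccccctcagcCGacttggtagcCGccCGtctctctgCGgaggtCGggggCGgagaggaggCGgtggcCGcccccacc
Adgre4: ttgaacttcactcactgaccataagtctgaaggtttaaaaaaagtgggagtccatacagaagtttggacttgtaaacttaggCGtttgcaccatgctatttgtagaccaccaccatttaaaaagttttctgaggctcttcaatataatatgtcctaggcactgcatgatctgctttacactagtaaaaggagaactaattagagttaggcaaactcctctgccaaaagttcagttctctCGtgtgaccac
These windows are chr13:105054931-105055180 and chr16:45844379-45844628 on the minus strand and chr17:55749734-55749983 on the plus strand. The Phldb2 window lies inside the gene span given above, so its RefSeq start is not the outermost annotated one. Which start is used in HSC was not tested. The window of Phldb2 holds 16 CpG at 70% G+C, that of Rgs7bp 5 at 43.2% and that of Adgre4 2 at 39.6%. The median over 32851 such windows of the genome is 6 CpG and 52.4% G+C. Gprin3 (16 CpG) and the second Cldn10 start (22 CpG) resemble Phldb2 in this count, while Fam198b (3 CpG) and the first Cldn10 start (4 CpG) resemble Adgre4. The GATA core GATAA, read on both strands, is in 3 of the 7 windows (Rgs7bp, Phldb2 and the first Cldn10 start) and in 22.6% of all windows. The letters TGTGGT (the RUNX core), CAGGAAG (an ETS core) and TATAAA are in 0 of the 7 windows, against 14.1%, 10.8% and 12.4% of all windows.

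Library depth was 13.3 to 20.8 M counted reads in the first experiment and 18.6 to 42.8 M in the second. Levels below are CPM, the count of a gene per M reads of the library, after TMM scaling over the libraries of 1 experiment. The 2 tables were scaled separately, so levels are not compared across experiments. Kmt2c itself was lower in ko than in wt in every population, at 50.9, 35.6 and 16 CPM (wt, het, ko means) in untreated HSC. Over the tested groups, excluding HSC given IL-1, ko kept 29.2% to 35.1% of the wt level, and these reads can include exons outside the deleted part. The library labelled HSC wt IL1 replicate 1 goes against its label. It held 14.0 CPM of Kmt2c, against 41.6 and 42.6 in the other libraries of its group, and results on HSC given IL-1 are given with and without it. In the second experiment the HSC libraries are titled and described as HSC, although their cell type field reads HPCs. Their summed level of 8 HSC marker genes was 1400 to 2233 CPM, against 258 to 832 in the HPC libraries. None of these 8 markers was called between ko and wt HSC (edgeR adjusted p under 0.05). Of all genes tested, 1.78% were called in untreated HSC and 0.798% in HSC PBS. The labels do not say whether replicates are separate animals, so p-values measure the spread between these libraries, which may be partly technical.

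Rgs7bp was the highest of the 6 in wt HSC per kilobase of exon, and in ko it dropped to a few percent of that level in each experiment. In untreated HSC the wt libraries held 15.6, 11.4, 12.3 and 14.8 CPM (13.5 ± 1.98, SD, n = 4). The het libraries held 8.94, 6.59, 7.91 and 6.96 CPM (7.60 ± 1.05). The ko libraries held 0.756, 0.856, 0.528 and 0.978 CPM (0.780 ± 0.191). The 3 genotypes did not overlap, with het at 56.2% and ko at 5.77% of wt, and the log2 change of ko against wt was -4.12 ± 0.28 (SE). The members were chosen with earlier results of these data known, so the PBS libraries are not an independent repeat. In PBS, wt HSC held 18.7, 19.0, 13.8 and 9.72 CPM (15.3 ± 4.40) and ko HSC 1.14, 0.434, 0.893 and 2.22 CPM (1.17 ± 0.759). Every ko library lay below every wt library. This was a 12.9-fold drop in ko (log2 change -3.69 ± 0.64, adjusted p = 0.00922), which held under 13 of 14 alternatives and ended without the filter on low counts (adjusted p = 0.0523). In bulk libraries, fewer cells that express a gene and less RNA per cell cannot be told apart.

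Gprin3 was a low gene in wt HSC and had no read at all in ko HSC of either untreated or PBS mice. In untreated HSC the wt libraries held 0, 0.913, 0.265 and 0.815 CPM (37 reads) and the het libraries 0.378, 0.682, 0.0565 and 0.0494 CPM (20 reads). The 4 ko libraries held 0 of 64.3 M reads, which makes ko at least 12.4-fold lower than wt, taking 3 counts over the group as the floor. In PBS, wt held 2.51, 2.76, 1.64 and 2.85 CPM (2.44 ± 0.556, 295 reads), and ko 0 of 114 M reads. That floor is 0.0263 CPM, so the ko level was at least 94.1-fold lower in these libraries. Counting floors and intervals cover counting error only. Gprin3 was chosen on the HSC libraries of PBS mice, so no test is given for comparisons that include them. The fit of HSC given IL-1 shares its estimate of the spread with them, so Gprin3 is not tested independently of the choice there.

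Among the other genes of G protein shut-off, calls in HSC PBS were few. Of 7 listed genes of the R7 complex, which includes the Rgs7bp partner Gnb5 (7.15 CPM per kilobase in wt untreated HSC, the highest of its list), 4 were tested in HSC PBS and 0 were called (edgeR), against 0.798% of all genes tested. Their median log2 change was 0.36, against 0.01 over all genes. Of 15 other RGS genes 10 were tested and 1 was called, against the same share, and Rgs18, an RGS protein of platelets and blood progenitors, was the highest of that list in wt untreated HSC at 238 CPM per kilobase. The called gene was Rgs1, known from lymphocytes, at 116 ± 43.6 CPM in wt and 55.1 ± 10.9 in ko (log2 change -1.07 ± 0.24, adjusted p = 0.0449). Rgs1 also fell in untreated HPC (-0.98 ± 0.21, adjusted p = 0.0268) and in pGM (-1.32 ± 0.29, adjusted p = 0.0199). In pGM, 4 of the 9 RGS genes tested were called, 3 lower and 1 higher, against 1.94% of all genes called in either direction. There Rgs8 fell from 2.41 ± 1.19 to 0.207 ± 0.179 CPM (adjusted p = 0.00535) and Rgs18 by 0.43 on the log2 scale (adjusted p = 0.0411), while Rgs10 rose by 0.56 (adjusted p = 0.0204). Of 18 G protein subunit and GPRIN genes 16 were tested in HSC PBS and 0 were called, against 0.798% of all genes. Gnb1, a β subunit, was their highest at 367 CPM per kilobase.

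Phldb2 was almost absent from untreated ko HSC and very low in het HSC. The wt libraries held 6.74, 7.19, 7.68 and 7.74 CPM (7.34 ± 0.469, n = 4). The het libraries held 1.70, 1.93, 0.903 and 2.62 CPM (1.79 ± 0.707). Of the ko libraries 3 held no read, and the other held 0.288 CPM from 5 reads. Het was at 24.4% and ko at 0.98% of wt, the lowest ko share of the 5 genes with a wt mean over 1 CPM. In PBS, wt held 8.84, 8.38, 5.82 and 6.90 CPM (7.48 ± 1.39) and ko 1.43, 1.00, 0.417 and 0.565 CPM (0.853 ± 0.458). Phldb2 fell 8.8-fold in ko without overlap (log2 change -3.14 ± 0.65, adjusted p = 0.0277). The call ended on leaving out any library but wt replicate 3 (adjusted p 0.0545 to 0.1) and with no filter, voom or a replicate block (0.0543 to 0.104). Its antisense neighbours in the annotation, Gm15640 and Gm15638, held 0 and at most 7 reads in any HSC library. Of 12 genes of the cortical microtubule group, all 12 were tested in HSC PBS and 0 were called, against 0.798% of all genes. Their median log2 change was 0.18, against 0.01 for all genes. Clasp2, a partner of Phldb2 at microtubule ends, was the highest of them in wt untreated HSC, at 3.41 CPM per kilobase.

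Cldn10 was low in untreated ko HSC, and it was the one member whose drop did not pass in PBS. The untreated wt libraries held 4.12, 4.91, 4.24 and 4.02 CPM (4.32 ± 0.400). The het libraries held 1.89, 4.83, 4.46 and 2.03 CPM (3.30 ± 1.56), and the ko libraries 0.222, 0.482, 0.117 and 0.230 CPM (0.263 ± 0.155). Het replicates 2 and 3 thus lay in the wt range and replicates 1 and 4 between ko and wt, and the ko mean was 6.08% of wt. In PBS, wt held 1.39, 0.732, 2.71 and 3.40 CPM (2.06 ± 1.21) and ko 0.378, 0.802, 0.536 and 0.423 CPM (0.535 ± 0.190). The groups overlapped through wt replicate 2 (log2 change -1.94 ± 0.59, adjusted p = 0.172), and DESeq2 called the gene (0.0444). Of 30 tight junction genes 18 were tested in HSC PBS and 1 was called, against 0.798% of all genes. Cldn7, a claudin of epithelia, was higher in ko at 6.38 ± 1.95 CPM than in wt at 2.31 ± 0.521 (log2 change 1.47 ± 0.30, adjusted p = 0.0277). In untreated HPC, Jam2, a junctional adhesion molecule, fell from 1.28 ± 0.438 to 0.125 ± 0.111 CPM (adjusted p = 0.0434). F11r, the related junctional adhesion molecule A, was the highest of the list in wt untreated HSC at 91.2 CPM per kilobase.

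In untreated HSC, but not in HSC PBS, Adgre4 had the widest relative spread between wt libraries of the 5 genes above 1 CPM. The untreated wt libraries held 3.05, 7.70, 4.98 and 3.21 CPM (4.74 ± 2.16). The het libraries held 1.07, 2.44, 1.19 and 2.86 CPM (1.89 ± 0.898) and the ko libraries 0.0890, 0, 0.469 and 0.690 CPM (0.312 ± 0.324). Het was at 39.9% and ko at 6.59% of wt, and no library of 1 genotype reached into the range of another. In PBS, wt held 3.06, 3.89, 2.39 and 3.14 CPM (3.12 ± 0.616) and ko 0.967, 0.0668, 0.446 and 0.106 CPM (0.397 ± 0.417). Adgre4 fell 8-fold without overlap (log2 change -3.0 ± 0.69, adjusted p = 0.0467), and the call ended without any library but ko replicate 1 (0.0828 to 0.157) and under 3 other alternatives (0.0664 to 0.122). Macrophage markers moved with genotype in the same HSC libraries. The summed level of 10 such markers was 101 to 134 CPM in wt PBS and 50.8 to 86.9 in ko PBS, with 2 of 10 called lower (Vcam1 and Cd163), against 0.562% of all genes, and none at 0. In untreated HSC the sums were 88.0 to 167 in wt and 60.7 to 108 in ko, with 3 of 10 lower (C1qb, Cd163 and Hmox1), against 1.21% of all genes. The part of macrophage RNA in the Adgre4 result was not tested. Megakaryocyte markers, 7 genes, summed to 198 to 292 CPM in wt PBS and 157 to 210 in ko PBS, with 1 of 7 lower (Gp1ba), against 0.562% of all genes. In untreated HSC they summed to 309 to 348 CPM in wt and 203 to 297 in ko, with 3 of 7 lower (Gp9, Gp5 and Itga2b), against 1.21%. The summed level of 8 stroma and endothelium markers also lay lower in ko without overlap, at 54.2 to 85.9 CPM in wt and 22.7 to 46.1 in ko untreated, and at 79.2 to 143 in wt and 26.0 to 66.3 in ko PBS. Of these, 2 of 3 tested were called lower in untreated HSC (Pecam1 and Kdr), against 1.21% of all genes. In PBS 1 of 7 tested was called lower (Pecam1), against 0.562%, and Pdgfra was at 0 in wt PBS. The summed level of 4 T and NK cell markers was 93.1 to 132 CPM in wt and 41.6 to 73.4 in ko untreated. In PBS it was 57.2 to 105 in wt and 25.9 to 56.5 in ko. Nkg7, the 1 of them tested, was called lower untreated, against 1.21% of all genes, and not in PBS. In PBS 1 of 3 epithelium markers tested was called lower (Krt8), against 0.562%. The 5 pGM and GMP markers summed to 310.5 to 390 CPM in wt PBS and 407 to 639 in ko PBS, and overlapped untreated. The part of these cell types in the results was not tested. Of 26 other adhesion receptors 18 were tested in HSC PBS and 0 were called, against 0.798% of all genes. Adgrg1, the highest of them at 1131 CPM per kilobase in wt untreated HSC, is used to mark stem cells. In untreated HSC, where 1.78% of all genes were called, 1 of 15 tested was called, Adgrg2, which rose from 2.59 ± 0.660 to 6.49 ± 2.18 CPM (adjusted p = 0.0462).

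Fam198b, like Phldb2, was low in het HSC and close to 0 in ko HSC. The untreated wt libraries held 9.79, 11.5, 8.69 and 7.64 CPM (9.40 ± 1.64). The het libraries held 2.20, 3.18, 2.77 and 2.91 CPM (2.77 ± 0.412) and the ko libraries 0, 0.428, 0.762 and 0.0575 CPM (0.312 ± 0.355). The het share was 29.4% and the ko share 3.32% of wt, without overlap between genotypes. In PBS, wt held 8.66, 6.55, 13.3 and 6.43 CPM (8.73 ± 3.20) and ko 0, 0.0668, 0.595 and 0.212 CPM (0.218 ± 0.266). Fam198b fell 37.4-fold (log2 change -5.23 ± 0.95, adjusted p = 0.0132). The call ended without ko replicate 2 (0.0595) or ko replicate 4 (0.0789), with no filter (0.0713) and with voom (0.127). Of 9 genes for related secretory pathway kinases 8 were tested and 0 were called in HSC PBS, against 0.798% of all genes. Fam69a, a kinase-like protein of the endoplasmic reticulum, was the highest of them in wt untreated HSC at 22.1 CPM per kilobase.

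**Figure D1:**
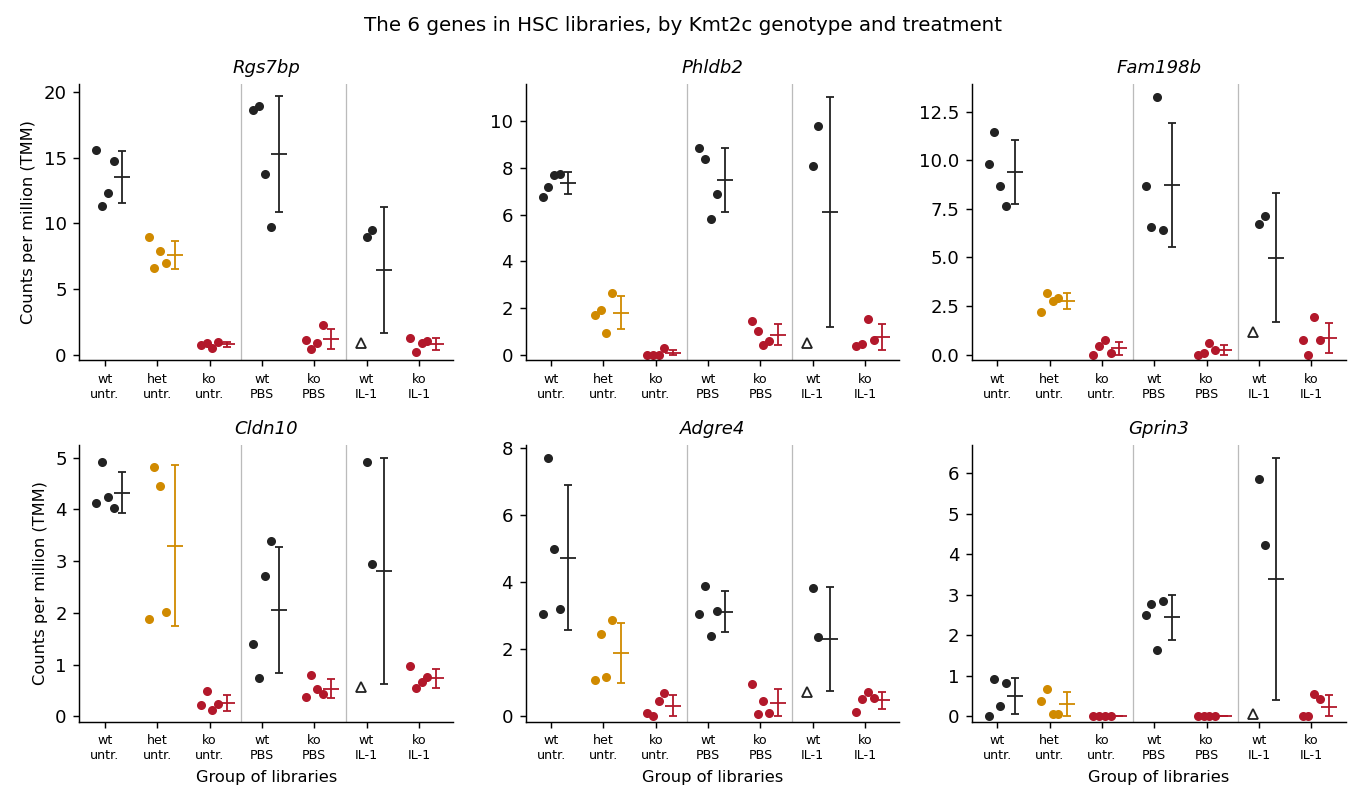
Levels of the 6 genes in every HSC library (CPM after TMM scaling within each experiment, vertical axis) by genotype and treatment (horizontal axis). Points are libraries, bars the mean and SD with the lower arm stopped at 0, and the open triangle is the library labelled HSC wt IL1 replicate 1. The ko libraries sit near 0 in each panel, and the het libraries of Phldb2 and Fam198b lie nearer to ko than to wt.

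Set side by side, the 6 genes differ in their het levels. In untreated HSC, 5 of the 6 had every ko library below every wt library, where 3.64% of all tested genes did so, and this contrast chose them. Of the het libraries, those of Rgs7bp, Phldb2, Fam198b and Adgre4 lay wholly below wt, 4 of 6, against 1.59% of tested genes. All 6 had ko wholly below het, against 2.06% of tested genes. Gprin3 is counted in the 6 but was below the filter, so it is outside the tested genes. Its lowest het library held 0.0494 CPM. Members at least 2-fold lower numbered 5 (ko against wt, 3.43% of genes), 3 (het against wt, 1.41%) and 5 (ko against het, 2.30%), of 5 tested. The log2 change of het against wt was -2.04 ± 0.52 for Phldb2, -1.77 ± 0.51 for Fam198b, -1.31 ± 0.61 for Adgre4, -0.85 ± 0.24 for Rgs7bp and -0.40 ± 0.40 for Cldn10. The further step from het to ko was -4.61 ± 0.73, -3.17 ± 0.60, -2.62 ± 0.70, -3.27 ± 0.27 and -3.62 ± 0.48 in the same order. Phldb2 and Fam198b had the lowest het levels relative to wt, and Cldn10 the highest. These comparisons share libraries, and none of these values carries a test. In HSC of PBS mice, Gprin3 left aside because these libraries chose it, 4 of the 5 other members were called lower, where 0.562% of all tested genes were. Ko lay wholly below wt for 4 of these 5, against 3.69% of genes. Their median log2 change was -3.14, against 0.01 over all genes. A gene low in ko can pass the filter on low counts through its wt libraries. These counts, and the members' adjusted p for ko against wt in every population, are therefore a description of the members.

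Per kilobase of exon, the wt levels in untreated HSC were 1.91 ± 0.280 CPM for Rgs7bp, 1.67 ± 0.154 for Cldn10 and 1.36 ± 0.619 for Adgre4. Fam198b at 0.979 ± 0.171 and Phldb2 at 0.968 ± 0.0619 followed, and Gprin3 stood at 0.0597 ± 0.0525. Rgs7bp, Cldn10 and Adgre4 lie within each other's spread, as do Fam198b and Phldb2. The order of the means changes in the more mature populations. In wt HPC Gprin3 had the highest mean at 0.536 ± 0.200 CPM per kilobase. Rgs7bp at 0.431 ± 0.0752 and Fam198b at 0.423 ± 0.162 overlapped it in their spread.

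Along the populations of untreated wt mice, Rgs7bp went from 13.5 ± 1.98 CPM in HSC to 3.05 ± 0.532 in HPC, 2.90 ± 1.12 in pGM and 0.435 ± 0.313 in GMP. HPC and pGM did not differ beyond their spread. Phldb2 went from 7.34 in HSC to 0.725 ± 0.159 in HPC, with 1.85 ± 0.326 in pGM and 1.86 ± 0.354 in GMP. Fam198b declined through 4.06 ± 1.55 in HPC and 2.21 ± 1.41 in pGM to 0.786 ± 0.317 in GMP. Cldn10 was low outside HSC, with means of 0.345 in HPC, 0.634 in pGM and 0.301 in GMP. Adgre4 was at 0.853 in HPC, 0.458 in pGM and 1.64 in GMP, and its HPC and GMP ranges overlapped. Gprin3 had its highest mean in HPC, at 4.47 ± 1.67, with no wt HPC library overlapping a wt HSC library. Its levels in pGM (2.07 ± 1.68) and GMP (0.884 ± 0.735) overlapped that of HSC (0.498 ± 0.438).

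**Figure D2:**
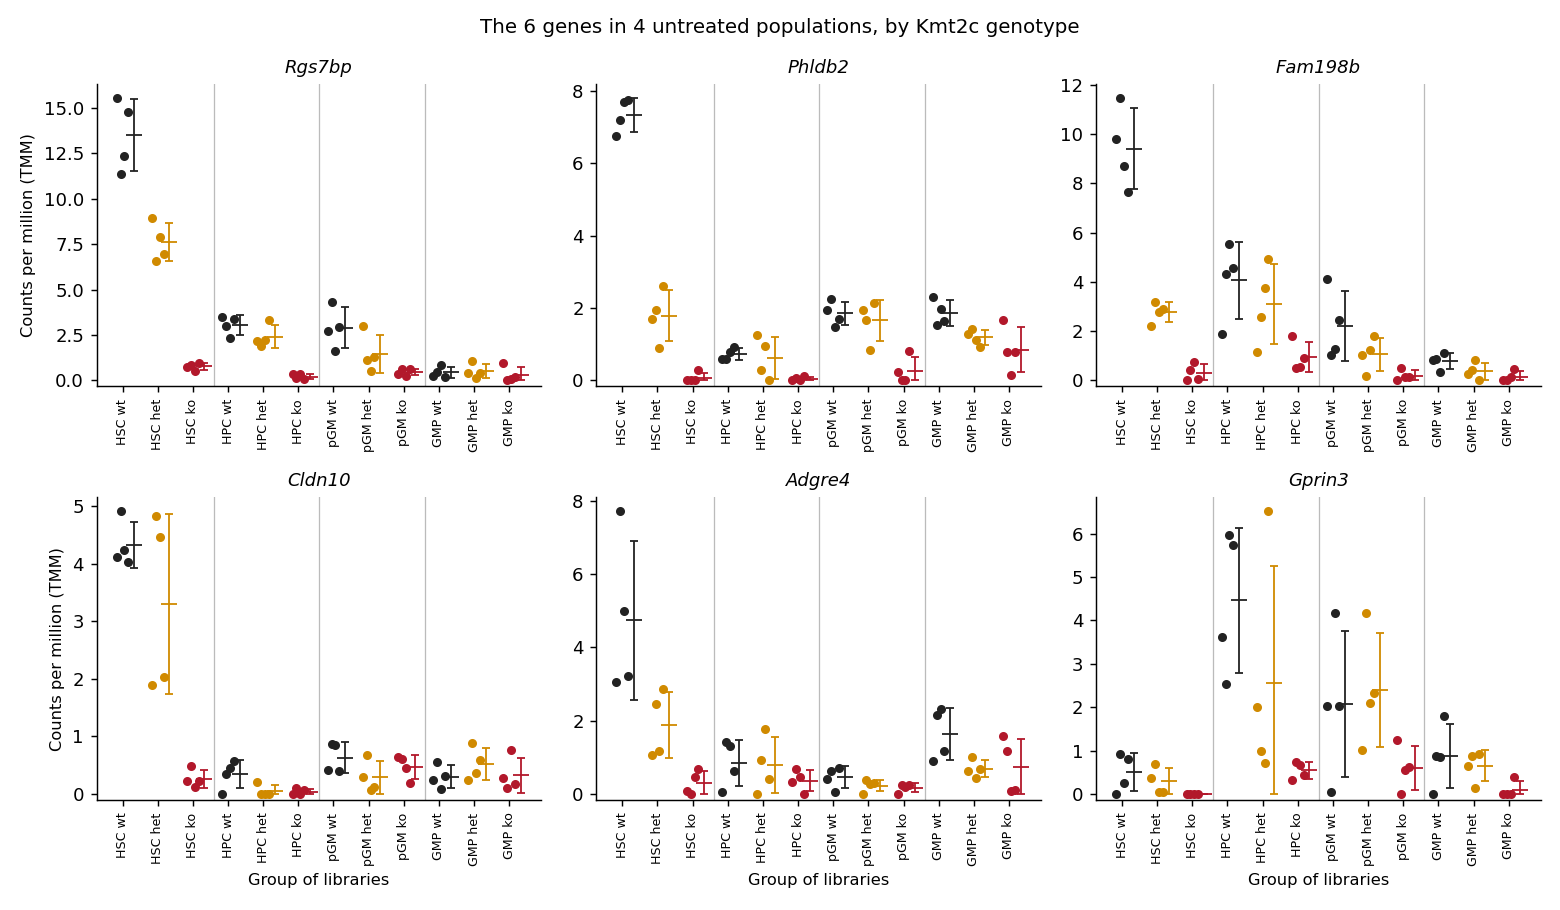
Levels of the 6 genes in untreated HSC, HPC, pGM and GMP (horizontal axis) for wt, het and ko (CPM after TMM scaling, vertical axis), with 1 point per library and the mean ± SD of 4, the lower arm stopped at 0. In wt, 5 genes are highest in HSC, while Gprin3 peaks in HPC at 4.47 CPM.

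The step from HSC to HPC was tested in the PBS mice, on 17511 genes in 1 fit. In wt, Phldb2 was lower in HPC (log2 change -2.13 ± 0.70, adjusted p = 0.0414), where 7.36% of all genes were called lower, and the call ended without any 1 of the 7 libraries (0.0525 to 0.138). Cldn10 held 1.39, 0.732, 2.71 and 3.40 CPM in wt HSC and 0.0255, 0.424 and 0.276 in wt HPC, without overlap. It passed the filter on low counts only through its HSC libraries, so no test of it is given here. Rgs7bp (-1.77 ± 0.63, adjusted p = 0.0611), Fam198b (-2.01 ± 0.94, 0.177) and Adgre4 (-0.77 ± 0.86, 0.645) did not pass. Gprin3 was at 2.44 ± 0.556 CPM in wt HSC and 4.99 ± 0.998 in wt HPC, without overlap. In ko, where both populations are low, 8.20% of all genes were called lower. Rgs7bp (log2 change -1.94, adjusted p = 0.062), Phldb2 (-1.80, 0.116), Fam198b (1.04, 0.558) and Adgre4 (1.49, 0.286) were not called by edgeR. DESeq2 called Rgs7bp (0.0203) and voom called 0.

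In HPC, Rgs7bp fell in untreated, PBS and IL-1 mice alike. Untreated wt HPC held 3.48, 3.01, 2.31 and 3.39 CPM, het 2.16, 1.88, 2.23 and 3.33, and ko 0.323, 0.104, 0.337 and 0.0635. Ko lay far below both other genotypes (log2 change against wt -3.86 ± 0.53, adjusted p = 0.000657), a call kept under all 15 alternatives, while the het range overlapped the wt range. Against het the change was -3.52 ± 0.52 (adjusted p = 0.00604; 0.157 with a Y-linked covariate), the only call of 5 members tested, where 0.173% of genes were called lower. After PBS, wt HPC held 3.08, 4.03 and 6.38 CPM and ko 0.335, 0.03 and 0.516 (-3.89 ± 0.60, adjusted p = 0.0196). That call ended without ko replicate 1, wt replicate 2 or wt replicate 3 (0.0741 to 0.0878). After IL-1, wt held 3.26, 3.97 and 3.33 CPM and ko 0.336, 0.251 and 0.459 (-3.31 ± 0.59, adjusted p = 0.0386). It ended without any of 5 of the 6 libraries, all but wt replicate 1 (0.106 to 0.198). Same-numbered libraries of this comparison were weakly correlated, but the labels state no pairing. With the number as a block in edgeR the Rgs7bp change was -3.41 (adjusted p = 0.0179), with 65 genes called in place of 32. Rgs7bp was the 1 member of 5 called after PBS, against 0.169% of genes, and the 1 of 5 after IL-1, against 0.150%. Ko lay wholly below wt for 4 of 6 members after PBS, against 7.84% of genes, and for 3 of 6 after IL-1, against 5.61%. The 6 include Cldn10, which was below the filter in HPC and so is outside the tested genes.

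Gprin3 was the second member to fall in untreated HPC. The wt libraries held 3.61, 2.54, 5.97 and 5.75 CPM, and the ko libraries 0.323, 0.729, 0.674 and 0.444. Het spread over 2.00, 0.998, 0.709 and 6.51 CPM, reaching from the ko range past the wt range. Ko against wt was an 8.19-fold drop (log2 change -3.03 ± 0.63, adjusted p = 0.0214). This call ended without any library but wt replicate 2 (0.0509 to 0.0939), and under 4 other alternatives, up to 0.213 with the Y-linked covariate. After PBS the ko change was -1.93 ± 0.66 (adjusted p = 0.374). Together 2 of 5 members were called in untreated HPC, against 0.851% of genes, and 4 of 6 had ko wholly below wt, against 3.91%. Fam198b (4.06 ± 1.55 to 0.940 ± 0.604 CPM, -2.12 ± 0.53, adjusted p = 0.0635), Phldb2 (-3.80 ± 1.07, 0.126) and Adgre4 (-1.20 ± 1.01, 0.886) did not pass. Fam198b was called by DESeq2 (0.00569) and without ko replicate 1 (0.0412). Phldb2 in HPC after IL-1 held 1.96, 3.35 and 2.15 CPM in wt and 0, 0.219 and 0.178 in ko, without overlap (-4.18 ± 0.80, adjusted p = 0.056; 0.0442 without wt replicate 1). Cldn10, with 0, 6, 8 and 10 reads in wt, was below the filter in HPC.

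In pGM, Rgs7bp and Fam198b fell. Rgs7bp held 2.72, 4.32, 1.60 and 2.96 CPM in wt and 0.353, 0.609, 0.252 and 0.630 in ko (-2.64 ± 0.54, adjusted p = 0.0137). Fam198b held 4.11, 1.04, 1.26 and 2.43 CPM in wt and 0, 0.487, 0.151 and 0.126 in ko (-3.48 ± 0.78, adjusted p = 0.0261). Neither gene overlapped between ko and wt. The Rgs7bp call ended without ko replicate 3 (0.0556) or wt replicate 2 (0.0543) and with the Y-linked covariate (0.0848). That of Fam198b ended without ko 1, ko 3, ko 4, wt 1 or wt 4 (0.0647 to 0.117) and under 3 other alternatives (0.0808 to 0.225). Phldb2, at 1.95, 2.25, 1.49 and 1.71 CPM in wt and 0.235, 0, 0 and 0.819 in ko, missed the threshold (-2.81 ± 0.77, adjusted p = 0.079). It was called without ko replicate 4 (0.00688), by DESeq2 (0.00503), by voom (0.0074) and with the Y-linked covariate (0.00282). Thus 2 of 5 members were called, against 1.53% of genes, and 3 of 6 had ko wholly below wt, against 3.70%. Adgre4, below the filter in pGM, is among the 6. Against het, 0 of 5 were called (edgeR; 4 at an unadjusted p under 0.05, DESeq2 1, voom 1), where 0.464% of genes were called lower. Gprin3 (-1.75 ± 0.86, adjusted p = 0.585) and Cldn10 (-0.42 ± 0.66, 0.974) did not pass.

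In GMP, 0 of 4 tested members were called (edgeR, DESeq2 and voom), against 0.356% of genes, although 3 had an unadjusted p under 0.05. The log2 changes of ko against wt were -1.12 ± 0.51 for Phldb2, -2.19 ± 0.91 for Fam198b, -1.16 ± 0.71 for Adgre4 and -2.83 ± 1.07 for Gprin3 (adjusted p 0.378 to 0.664). Against het 0 of 4 were called, as by DESeq2 and voom, with 1 at an unadjusted p under 0.05 and 0.0166% of genes called lower. Rgs7bp (0.435 against 0.302 CPM) and Cldn10 (0.301 against 0.329) were below the filter. Het against wt gave no member call in HPC, pGM or GMP by edgeR, DESeq2 or voom, and no member had an unadjusted p under 0.05. Genes called lower there made up 0%, 0.00773% and 0%. Whether the ko change differed between HPC and HSC was tested in PBS mice. 0 of 17511 genes were called (1016 at an unadjusted p under 0.05; DESeq2 13, voom 1). Gprin3 left aside, the members with the widest gap were Fam198b (3.04 ± 1.39 in log2, adjusted p = 0.853) and Adgre4 (2.26 ± 1.24, 0.901).

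**Figure D3:**
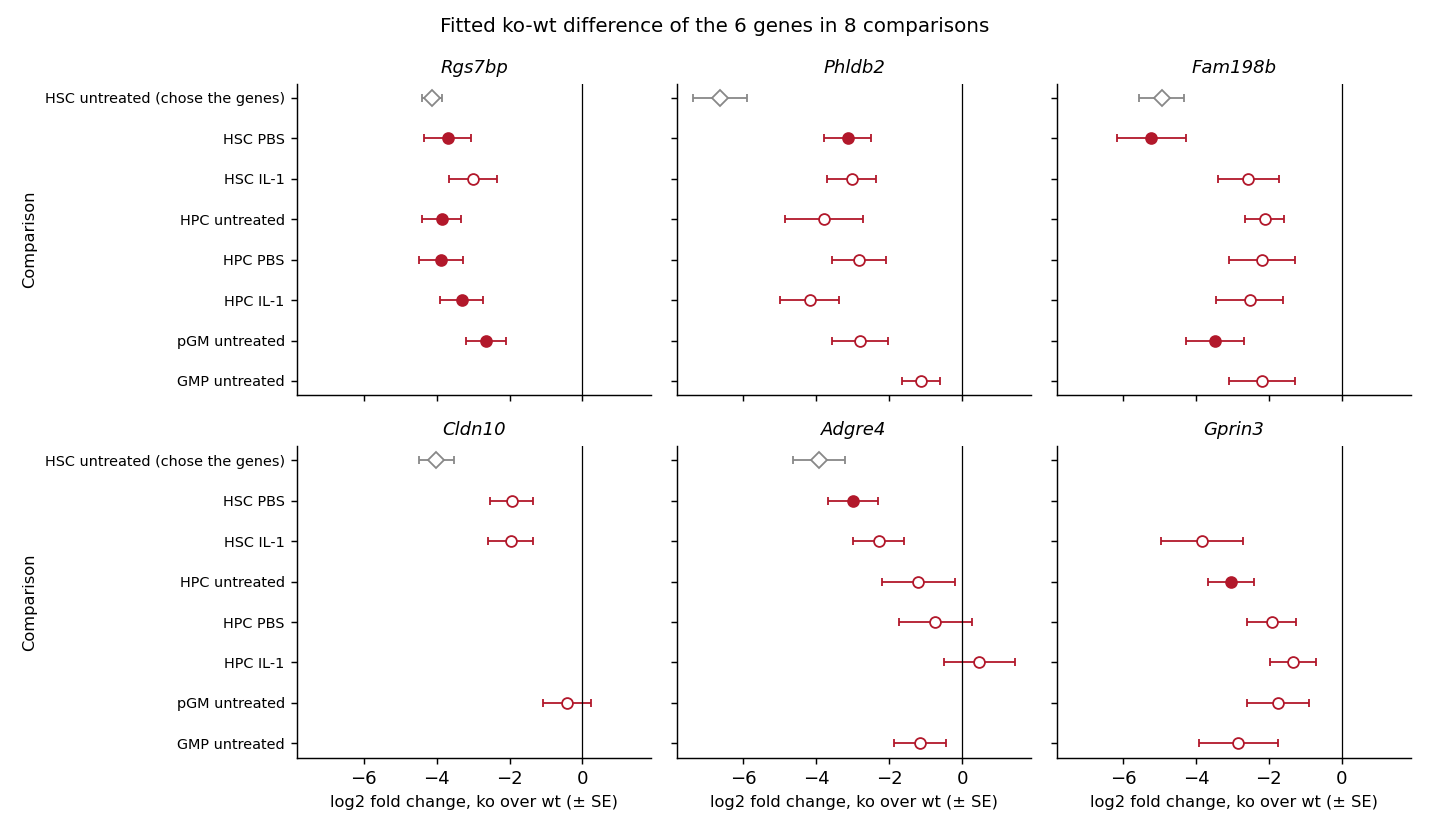
Log2 fold change of ko over wt (± SE) for the 6 genes in each population and treatment. Filled red points were called (edgeR adjusted p under 0.05) and grey diamonds are values of the contrast that chose the genes, given without a test. All values but Adgre4 in HPC after IL-1 lie below 0, and Rgs7bp is called in HSC PBS, in HPC of all 3 settings and in pGM.

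After IL-1 the 6 genes stayed low in ko HSC, and the comparison with wt rests on how 1 library is treated. With the library labelled HSC wt IL1 replicate 1, wt HSC after IL-1 held 0.872, 8.95 and 9.50 CPM of Rgs7bp and ko 1.25, 0.166, 0.843 and 1.00. That first library was as low as ko for all 6 genes: 0.498 CPM for Phldb2 against 8.07 and 9.79 in the others, 1.15 for Fam198b against 6.69 and 7.12, and 0.0623 for Gprin3 against 5.86 and 4.23. With it, 0 of 16538 genes were called between ko and wt (edgeR; 1412 at an unadjusted p under 0.05, DESeq2 94, voom 393), and the members' adjusted p ran from 0.139 to 0.403. All 6 members had an unadjusted p under 0.05, and DESeq2 called 2 and voom 1. Without it, in which case wt has 2 libraries, 4 of 6 were called lower against 0.732% of genes, and 6 of 6 did not overlap against 13.2%. Rgs7bp was at 9.23 ± 0.384 CPM in wt and 0.815 ± 0.463 in ko (-3.53 ± 0.54, adjusted p = 0.00224) and Phldb2 at 8.93 ± 1.21 and 0.752 (-3.57 ± 0.49, adjusted p = 0.00179). Cldn10 was at 3.94 ± 1.39 and 0.734 (-2.46 ± 0.54, adjusted p = 0.033). Gprin3 was at 5.04 ± 1.15 in wt, and at 0, 0, 0.538 and 0.419 CPM in ko (-4.41 ± 0.91, adjusted p = 0.0299), the 1 ko HSC group in which it had reads. The PBS libraries that chose Gprin3 enter the spread of this fit, so its call is not independent of the choice. Fam198b (-3.03 ± 0.83, adjusted p = 0.108) and Adgre4 (-2.72 ± 0.69, 0.0786) did not pass.

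IL-1 against PBS gave no call among the 5 members tested in each of HSC and HPC, in either genotype (edgeR, DESeq2 and voom). Gprin3 in HSC and Cldn10 in HPC were not tested. By edgeR 33 genes, or 0.200% of those tested, were called in wt HSC, 35 (0.212%) in ko HSC, 151 (0.947%) in wt HPC and 69 (0.433%) in ko HPC. Members at an unadjusted p under 0.05 numbered 0 in wt HSC, ko HSC and wt HPC and 1 in ko HPC. In ko HSC, Fam198b went from a mean of 0.218 CPM after PBS to 0.851 after IL-1, with overlap (log2 change 1.89 ± 0.91, adjusted p = 0.575). In HPC the widest shift was that of Gprin3. In wt HPC it went from 5.24, 3.88 and 5.83 CPM after PBS to 6.11, 15.3 and 13.6 after IL-1, without overlap (log2 change 1.23 ± 0.63, adjusted p = 0.556). In ko HPC it went from 0.921, 0.960 and 2.04 to 0.580, 8.06 and 5.18 CPM (1.81 ± 0.66, adjusted p = 0.497), where IL-1 replicate 1 lay below the PBS range. Without IL-1 replicate 1 the gene was called (adjusted p = 0.0228). Adgre4 in HPC after IL-1 was spread over 0.703, 1.32 and 6.14 CPM in ko and 3.29, 1.15 and 1.47 in wt. This was the 1 fitted change of ko against wt that was not below 0 (0.47 ± 0.98, adjusted p = 1, and -0.97 without ko replicate 3). Rgs7bp in wt HSC changed by -1.21 ± 0.63 (adjusted p = 0.685), or -0.69 once the library labelled HSC wt IL1 replicate 1 is left out. Without that library edgeR called 0 members in wt HSC, with 9 genes called lower and 29 higher. Leaving it out moved Phldb2 from -0.26 to 0.29 and Fam198b from -0.78 to -0.31. Cldn10 moved from 0.48 to 0.96 and Adgre4 from -0.39 to 0.04. No gene passed the test of a different IL-1 response in ko and wt (edgeR; 756 in HSC and 352 in HPC at an unadjusted p under 0.05; DESeq2 1 and 12, voom 0 and 0). Fam198b had the widest such value in HSC (2.67 ± 1.23, adjusted p = 0.847).

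The genes next door were examined in the same PBS libraries. Of the 36 tested genes nearest to the 6 members, 3 on each side, 1 was called in HSC PBS, against 0.798% of all genes called in either direction, and their median log2 change was -0.20. Next to Rgs7bp, Srek1ip1 and Rnf180 had log2 changes of 0.23 and -0.32. Next to Phldb2, Abhd10 lies 3.29 kb and Plcxd2 5.67 kb away, with -0.34 and -0.79. Next to Fam198b, Tmem144 and Pdgfc had 0.40 and 0.56, and next to Adgre4, Pot1b and Zfp119a had -0.30 and -0.44. Tigd2, on one side of Gprin3, had -0.37. The Cldn10 neighbour Dzip1, which begins 0.031 kb away, was at -1.35 (adjusted p = 0.349), and Abcc4 on the other side at -0.01. Without stated strandedness, reads of close neighbours could be shared. The called gene was Cd96, an immunoglobulin-type receptor of T and NK cells, 82.1 kb from Phldb2. It fell from 31.1 ± 6.19 to 2.74 ± 0.521 CPM (log2 change -3.51 ± 0.52, adjusted p = 0.00316). In untreated HSC Cd96 changed by -3.01 (adjusted p = 4.28e-05). Mmrn1, 1499 kb from Gprin3, was at -1.77 ± 0.43 (adjusted p = 0.0609).

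**Figure D4:**
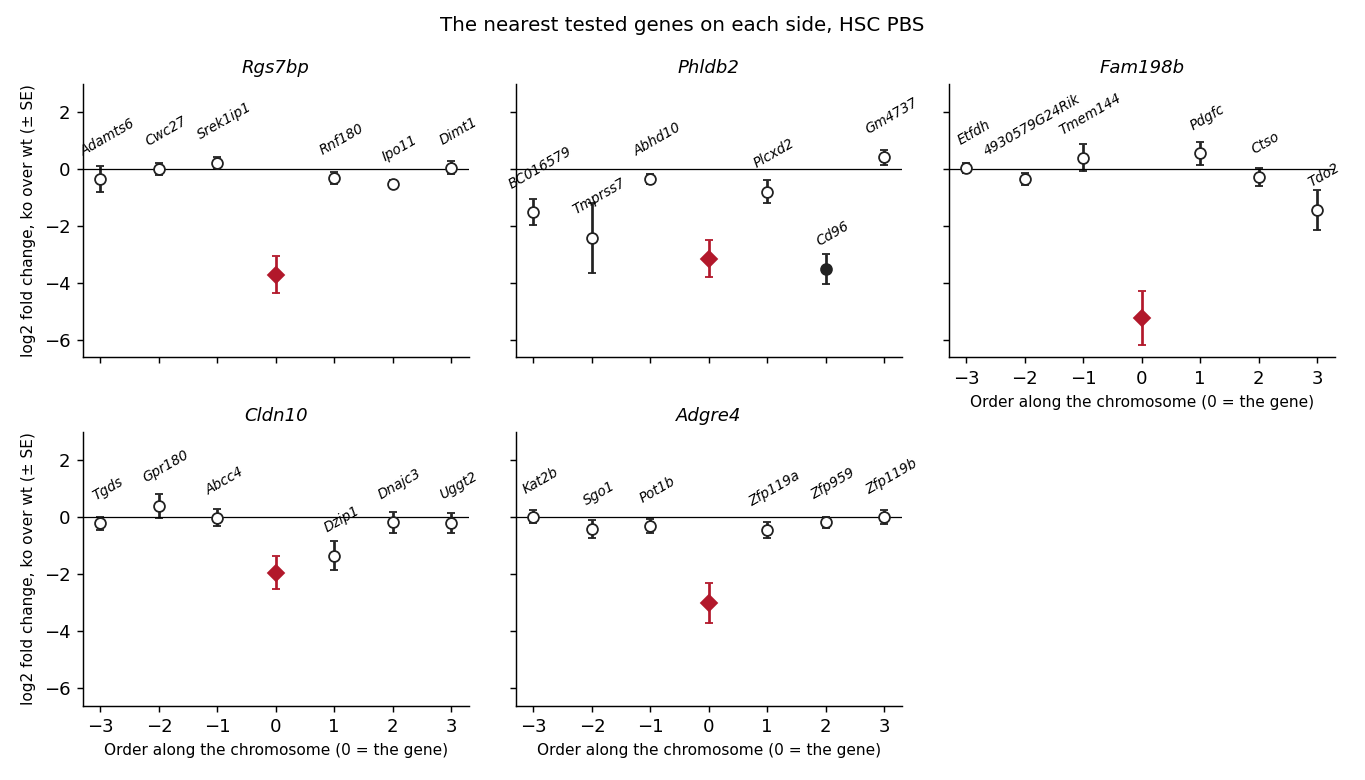
Log2 fold change of ko over wt in HSC PBS (± SE, vertical axis) for Rgs7bp, Phldb2, Fam198b, Cldn10 and Adgre4 and the 3 tested genes nearest on each side, in order along the chromosome (horizontal axis, 0 is the gene itself). Red diamonds are the genes followed here, black filled points neighbours called by edgeR and open points neighbours not called. Gprin3 is not drawn, since ko held 0 reads, and Cd96 beside Phldb2 is the 1 called neighbour.

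Across the 48 untreated libraries, levels of Rgs7bp, Phldb2, Fam198b, Cldn10 and Adgre4 ran together, with Pearson r of log2 levels from 0.497 (Fam198b and Cldn10) to 0.797 (Rgs7bp and Fam198b). Gprin3 stood apart, with r from -0.195 to 0.325 against the other 5. These libraries share populations and genotypes, and the 5 were chosen for a common drop, so r is a description. Among 11125 genes with a mean of at least 1 CPM, Pcdh7 (r = 0.853), Mcf2 (0.824) and Pde3b (0.823) were most like Rgs7bp. In the 27 libraries of the second experiment their r with Rgs7bp was 0.814, 0.784 and 0.74. Most like Phldb2 were Gcnt1 (0.697), Adgre4 (0.674) and Dtnbp1 (0.653), and most like Fam198b were Cytip (0.834) and Ptger3 (0.834). For Cldn10 they were Ankrd63 (0.798), Runx1t1 (0.775) and Edar (0.767), and for Adgre4 Ankrd63 (0.695), Phldb2 (0.674) and Gcnt1 (0.668). Gprin3 was most like Traf3ip2 (0.74), Fcrl1 (0.722) and Dnajc6 (0.722), with r of 0.876, 0.768 and 0.501 in the second experiment.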

How the data were processed

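The gene-level read counts deposited by the authors were used as they are, whole counts in 2 tables, 1 per experiment. Per the submitters' processing notes, the tools were STAR 3.0.4 for alignment and featureCounts 1.4.5 for counting. The sources used here do not give genome build or strandedness. Of the columns, 0 were unassigned. The 3 entries of the first table that name no mouse gene (9.57e-05% of reads) were left out.

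Each population of an experiment was fitted with all its groups in edgeR 4.0.16 (R 4.3.3), by quasi-likelihood tests with TMM scaling, filterByExpr (minimum count 10, minimum total 15) and Benjamini-Hochberg adjustment. A gene was called at an adjusted p under 0.05. HPC against HSC was fitted over all libraries of the second experiment. Alternatives were DESeq2 1.42.0, voom with sample weights (limma 3.58.1), RLE scaling, no filter, a replicate block, all libraries in 1 fit, a covariate of Y-linked expression in the first experiment, and each library left out. The scripts were tested on simulated data. In HPC ko against wt after IL-1, r of same-numbered libraries was 0.158 to 0.37. No other comparison examined had a lowest r as high, and the labels state no pairing. No libraries were duplicates among 105 pairs within groups.

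The members and lists were chosen with earlier results of these data known. Genes named besides the members are Kmt2c, called members of 7 gene lists and each list's highest gene, called or nearest neighbours, and the 3 genes most like each member. Of the genes this takes, 2 are not reported here. Mmrn1 was named after its values were seen.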

Additional observations from a re-analysis of the deposited data

Results flagged for a closer look

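In 88 groups of 4 libraries the gap of the highest or lowest library to the nearest other was set against the range of the group, by Dixon's test, and 3 stood out. Chance flags about 1 in 20 groups. Phldb2 in HSC ko untreated replicate 4 was at 0.2876 CPM, from 5 reads, and 0 in the other 3. Cldn10 in HPC het untreated replicate 1 was at 0.2157 CPM, from 4 reads, and 0 in the other 3. Gprin3 in GMP ko untreated replicate 4 was at 0.3929 CPM, from 7 reads, and 0 in the other 3. Each of these is a library with a handful of reads beside libraries with none.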

How the results depend on the processing

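No change that was called, in the reported fit or under an alternative, took the other sign. Among changes not called, 27 of the 130 had another sign under some alternative, 12 of them for IL-1 against PBS. One was ko against wt, Adgre4 in HPC after IL-1, at -0.97 without ko replicate 3. Of 1893 repeats of single-gene values, 70 lost a call and 31 gained one. The other 1792 changed no call, but they include the values given without a test, which could not change. All 555 repeats of ko against wt values that were negative stayed negative.

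Counts of members called moved as follows. In HPC untreated, ko against wt went from 2 to 3 with DESeq2 and to 1 with voom or the Y-linked covariate, and ko against het from 1 to 0 with that covariate. In pGM, ko against wt went from 2 to 3 with DESeq2 and to 1 with the covariate, and ko against het from 0 to 1 with DESeq2, voom or the covariate. In HSC PBS the count of 4 became 5 with DESeq2, 3 with all libraries in 1 fit, and 1 with no filter or with voom. In HSC IL-1 the count of 0 became 2 with DESeq2 and 1 with voom. In HPC PBS 1 became 2 with DESeq2 or no filter, and in HPC IL-1 1 became 2 with DESeq2, no filter, voom or all libraries in 1 fit. For HPC against HSC in wt, Cldn10 left aside, Rgs7bp was called as well by DESeq2 (adjusted p = 0.027) and voom (0.0117). The Phldb2 call there ended with no filter (0.0971 by edgeR). In ko, DESeq2 called Rgs7bp (0.0203).

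With the replicate number as a block, members called went from 2 to 1 in HPC untreated, from 2 to 1 in pGM and from 4 to 2 in HSC PBS. Block or pairing changed no other count of members by over 1.5 times. The labels state no pairing of same-numbered libraries.

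Leaving out 1 library gave 1 to 2 members called in HPC untreated, and 1 to 1 for ko against het there. In pGM it gave 0 to 2, and 0 to 1 for ko against het. It gave 1 to 3 in HSC PBS, 0 to 4 in HSC IL-1, 0 to 1 in HPC PBS and 0 to 2 in HPC IL-1. For IL-1 against PBS in ko HPC it gave 0 to 1, and for HPC against HSC in ko 0 to 1. For HPC against HSC in wt, Cldn10 left aside, the Phldb2 call ended without any 1 of the 7 libraries. Members at least 2-fold lower in untreated HSC numbered 5 to 6 (ko against wt), 2 to 4 (het against wt) and 5 to 6 (ko against het).

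With 5 neighbours per side 2 of 60 were called, the addition being Hpgds. By Spearman's rho 5 of the 18 most alike genes stayed. Without TMM the wt levels in untreated HSC were 16.2 CPM for Rgs7bp, 8.75 for Phldb2, 11.2 for Fam198b and 5.14 for Cldn10.

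Counts over all genes depended on the tool. For ko against wt edgeR called 246, 146, 251 and 67 genes in untreated HSC, HPC, pGM and GMP, and DESeq2 469, 302, 421 and 225. Over the alternatives these counts ran from 151, 37, 132 and 13 up to the DESeq2 values. For ko against het they were 45 (25 to 136), 26 (2 to 111), 73 (14 to 190) and 2 (0 to 40). For het against wt they were 1 (0 to 20), 1 (0 to 13), 2 (0 to 58) and 1 (0 to 5). In the second experiment, ko against wt gave 132 (42 to 374) in HSC PBS, 0 (0 to 393) in HSC IL-1, 41 (7 to 233) in HPC PBS and 32 (2 to 162) in HPC IL-1. IL-1 against PBS gave 33 (9 to 223) and 35 (9 to 180) in wt and ko HSC, and 151 (69 to 468) and 69 (28 to 233) in wt and ko HPC. HPC against HSC gave 2421 (1528 to 2978) in wt and 2882 (2032 to 3588) in ko. The cause of these shifts was not tested.

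Depth limits the lowest members most. Many values of ko libraries rest on a few reads, and differences between them are not detectable at this depth.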
